A study of Mus musculus with 16 samples.

Results

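The cornified envelope is the protein shell that replaces the plasma membrane of a keratinocyte as it dies and becomes a corneocyte of the skin surface. The genes described here were taken by name: every mouse gene whose symbol starts with Sprr or Lce and a digit, together with Lor, Flg, Flg2, Hrnr, Ivl, Rptn, Kprp, Tgm1, Tgm3, Casp14, Cdsn and Crct1. This rule gave 50 genes, all present in both deposited tables, out of 55357 gene rows for back skin and 56953 for sorted cells. They are 17 Sprr genes, 14 Lce1 genes, 6 Lce3 genes, Lce6a and the 12 genes listed by name. In the GENCODE M21 annotation of GRCm38, 46 of the 50 lie on chromosome 3, which carries the epidermal differentiation complex, and the others are Casp14 on chromosome 10, Cdsn on chromosome 17, Tgm1 on chromosome 14 and Tgm3 on chromosome 2.

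Envelope assembly begins on the inner face of the plasma membrane. Involucrin (Ivl) is laid down early, transglutaminases such as Tgm1 and Tgm3 cross-link the proteins, and loricrin (Lor), the small proline-rich proteins (Sprr) and the late cornified envelope proteins (Lce) reinforce the shell. Filaggrin (Flg) bundles keratin filaments and is degraded to moisture-holding amino acids with the help of caspase-14 (Casp14), filaggrin-2 (Flg2) belongs to the same fused S100 family, and corneodesmosin (Cdsn) holds corneocytes together until they are shed. Sprr genes and Lce3 genes are known to be induced in wounded, inflamed or barrier-deficient skin, whereas Lor, Flg, Flg2 and most Lce1 genes belong to the late programme of intact epidermis. In the descriptions below, the 17 Sprr genes are set against 30 late barrier genes, namely all Lce genes, Lor, Flg, Flg2, Hrnr, Rptn, Kprp, Crct1, Cdsn and Casp14, with Ivl, Tgm1 and Tgm3 kept apart.

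The series compares control C57BL/6 mice with mice called GRK2 eKO, a short form left unexplained in the labels, and asks how the kinase GRK2 bears on the hair follicle. Total back skin, labelled 8 months, gave 5 control and 5 eKO libraries of poly-A selected RNA. Hair follicle stem cells gave 3 control and 3 eKO libraries; they were sorted as cells positive for CD34 and α6-integrin, which mark the bulge, the resting stem cell niche of the follicle. The stem cell labels give 18 months, while the series text gives 8 months for both tissues, so the age of those mice is uncertain here. The labels name neither the driver nor the cell type of the deletion, nor the alleles that controls carry, nor whether a library holds RNA of 1 mouse or of several, so the p-values below measure the spread between these libraries.

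The values are read counts divided by a size factor for each library, called normalised reads below. Libraries held 8213632 to 16383486 gene-assigned reads in skin and 6428488 to 9387378 in sorted cells. Grk2 itself was 1099.7 to 1492 normalised reads in controls and 979.7 to 1224 in eKO in skin and 121 to 144 normalised reads in controls and 104 to 122 in eKO in sorted cells, and the ranges overlapped in both tissues (log2 fold change -0.22, adjusted p = 0.343, and -0.24, adjusted p = 0.501, limma), so whole-gene counts do not check the labels. The Y-linked gene Ddx3y was at 0.95 in skin control replicate 5 and 0 in skin eKO replicate 3 against 1030 to 1304 in the other 8 skin libraries. In sorted cells it was 1176 to 1216 in controls and 359 to 434 in eKO. This signal, which depends on the sex of the mice, thus differed between the sorted groups without overlap. The part of sex in the bulge cell results was not tested. The sorted cells carried bulge markers: the 8 markers Cd34, Itga6, Lgr5, Krt15, Sox9, Lhx2, Nfatc1 and Tcf7l1 summed to 154345 to 157434 normalised reads in controls and 134285 to 153395 in eKO. Summed markers of several other cell types were higher in the sorted eKO libraries than in their controls and stand beside every eKO result in those cells. The 7 endothelial markers summed to 13.7 to 44 in controls and 1002 to 1196 in eKO, with Cldn5 at 0 in all 6 libraries and Vwf at 0 in the controls. The 8 sebaceous markers summed to 2869 to 2945 and 10223 to 11411, and the 7 suprabasal epidermal markers to 12867 to 14817 and 25321 to 26486. Of these 7 suprabasal markers, limma called 4 higher and 1 lower. The 6 leukocyte markers summed to 292 to 346 and 1233 to 2155, where Cd74 and H2-Ab1 rose and Lyz2 fell. The 6 upper follicle markers summed to 2760.5 to 2951 and 4567 to 5444, with 3 of the 4 tested called higher and 1 lower. The 8 hair shaft markers with a gene row summed to 3.99 to 14 and 162 to 247. Their eKO sum was nearly all Krt35, which was at 0 in the controls. The sums for dermal fibroblasts (134 to 156 and 84.4 to 134) and melanocytes (148 to 217 and 101 to 156) were not higher. The part of these cell types in the results was not tested. In bulk RNA, fewer cells of a type and less RNA per cell cannot be told apart.

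The promoters of 7 members are shown because these members carry the contrasts described below: Sprr1a and Sprr2d for the stress-linked family, Casp14 and Tgm3 for the enzymes that rose in sorted eKO cells, and Flg2, Lce1m and Lor for late barrier genes with negative changes there. Each is the 250 bases before the annotated start, 5′ to 3′ on the gene's strand, from RefSeq on GRCm38.p6. Sprr1a lies on the minus strand at chr3:92485882-92486131. Sprr2d lies on the plus strand at chr3:92338890-92339139. Casp14 lies on the minus strand at chr10:78718294-78718543. Tgm3 lies on the plus strand at chr2:130012090-130012339. Flg2 lies on the plus strand at chr3:93197023-93197272. Lce1m lies on the minus strand at chr3:93019062-93019311. Lor lies on the minus strand at chr3:92083143-92083392. Capitals mark 2 motifs. The first is TGANTCA, the core sequence that dimers of Jun and Fos family proteins (AP-1) are known to bind. The other is TATAAA, the TATA box that positions the polymerase. Both strands were searched, and these motifs have no letters that could overlap.
Sprr1a: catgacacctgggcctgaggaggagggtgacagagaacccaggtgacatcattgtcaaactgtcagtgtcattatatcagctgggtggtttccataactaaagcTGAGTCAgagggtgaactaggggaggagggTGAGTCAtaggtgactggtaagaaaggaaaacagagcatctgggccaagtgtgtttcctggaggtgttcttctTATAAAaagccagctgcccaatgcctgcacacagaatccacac
Sprr2d: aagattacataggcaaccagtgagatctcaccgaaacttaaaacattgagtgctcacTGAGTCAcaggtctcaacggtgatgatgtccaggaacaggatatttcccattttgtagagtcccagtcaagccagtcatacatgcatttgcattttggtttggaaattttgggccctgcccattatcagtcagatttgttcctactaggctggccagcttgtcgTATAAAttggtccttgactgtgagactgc
Casp14: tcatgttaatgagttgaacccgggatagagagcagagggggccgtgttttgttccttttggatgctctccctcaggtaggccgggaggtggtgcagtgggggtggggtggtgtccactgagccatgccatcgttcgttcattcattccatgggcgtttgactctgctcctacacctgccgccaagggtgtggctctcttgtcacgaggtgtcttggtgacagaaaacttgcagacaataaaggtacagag
Tgm3: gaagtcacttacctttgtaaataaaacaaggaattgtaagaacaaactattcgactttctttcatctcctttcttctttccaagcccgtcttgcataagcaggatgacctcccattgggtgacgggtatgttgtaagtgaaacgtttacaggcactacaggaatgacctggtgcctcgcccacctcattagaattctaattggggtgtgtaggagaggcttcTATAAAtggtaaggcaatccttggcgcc
Flg2: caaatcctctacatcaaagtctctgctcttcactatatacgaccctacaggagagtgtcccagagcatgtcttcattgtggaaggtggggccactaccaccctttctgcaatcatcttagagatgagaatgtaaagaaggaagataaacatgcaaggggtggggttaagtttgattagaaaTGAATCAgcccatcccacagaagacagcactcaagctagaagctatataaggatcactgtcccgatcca
Lce1m: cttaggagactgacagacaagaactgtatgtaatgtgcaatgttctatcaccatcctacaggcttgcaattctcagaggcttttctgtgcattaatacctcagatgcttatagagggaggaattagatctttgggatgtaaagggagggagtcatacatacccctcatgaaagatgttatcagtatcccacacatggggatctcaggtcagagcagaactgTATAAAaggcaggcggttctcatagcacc
Lor: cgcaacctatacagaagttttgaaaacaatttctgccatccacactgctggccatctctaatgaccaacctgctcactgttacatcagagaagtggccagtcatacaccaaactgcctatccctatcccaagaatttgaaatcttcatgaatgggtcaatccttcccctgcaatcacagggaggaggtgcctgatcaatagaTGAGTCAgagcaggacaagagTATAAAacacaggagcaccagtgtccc

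The Sprr1a window held TGANTCA at -146 to -140 and at -116 to -110 from the start, and the Sprr2d window held it at -193 to -187. Flg2 had the motif at -69 to -63 and Lor at -48 to -42, while the windows of Casp14, Tgm3 and Lce1m held none. TATAAA stood between -29 and -22 in Sprr2d, Lce1m, Tgm3 and Lor and at -43 to -38 in Sprr1a. Of the 44 members with a window in the RefSeq table, TGANTCA occurred in 9 of 14 Sprr genes, 0 of 20 Lce genes, 4 of 6 late structural genes (Lor, Flg, Flg2, Hrnr, Rptn and Cdsn) and 1 of the 3 genes Ivl, Tgm1 and Tgm3, against 6.75% of all 32851 promoter windows of this length. TATAAA occurred in 10 of 14 Sprr genes, 4 of 20 Lce genes, 4 of 6 late structural genes, 2 of the 3 genes Ivl, Tgm1 and Tgm3 and 12.4% of all windows. Among the Lce matches, those of Lce3e (-243 to -238) and Lce6a (-218 to -213) were on the opposite strand and far from the start. TGANTCA was thus found in most Sprr windows and most late structural windows and in none of the Lce windows. Each Sprr2 gene with a match had TGAGTCA starting between -198 and -193 and TATAAA at -29 to -24. With such shared positions, the genes of this family are not independent cases beside the share of all windows. These matches describe letters only; no binding was measured.

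In back skin the 50 envelope genes together took 7799.8 to 12320.2 reads per 1000000 reads of a library (RPM) in controls and 10726 to 20337 in eKO, and late barrier genes made up most of this. Summed over the family, the 17 Sprr genes had 249, 494, 521, 1001 and 213 RPM in the 5 control libraries and 1152, 467, 2065, 1226 and 906 in the 5 eKO libraries. Most of the eKO libraries were above most of the controls, but control replicate 4 and eKO replicate 2 made the groups overlap. The 30 late barrier genes summed to 7419.8, 9419, 11582, 8109 and 8659 RPM in controls and 9408, 11113, 11304, 18596 and 12433 in eKO. Here eKO replicate 4 stood above all others and control replicate 3 exceeded 3 of the 5 eKO libraries. Per 1000 bases of exon, Lor was the most abundant member in control skin at 24475 normalised reads, followed by Lce1m at 10483. Sprr1a had 5682, Cdsn 3220.0, Flg2 1047 and Flg 83.8, with members not listed here lying between some of these. Hrnr, Rptn, Sprr2a1 and Sprr2c-ps were listed at 0 in all 16 libraries.

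**Figure D1:**
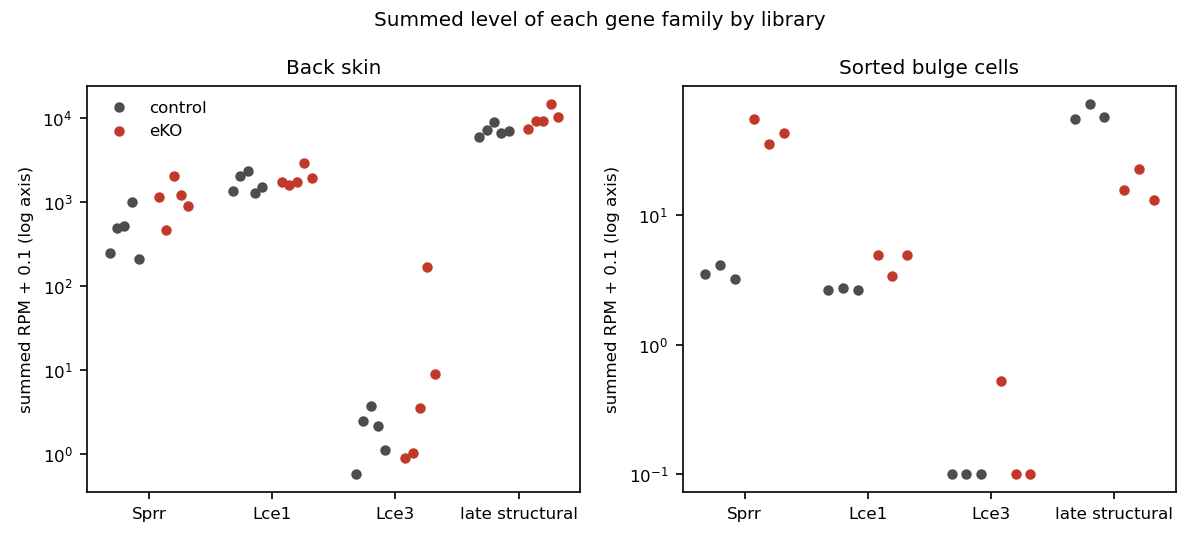
Summed RPM (plus 0.1, log axis) of the Sprr, Lce1, Lce3 and late structural genes (Lor, Flg, Flg2, Hrnr, Rptn, Kprp, Crct1 and Cdsn) in each library of back skin (left) and sorted bulge cells (right), 1 point per library, grey for control and red for eKO. In skin the groups overlap in every family, with 1 eKO library at 171 RPM for Lce3. In sorted cells the 3 eKO libraries lie above the controls for Sprr (35.5 to 55.2 against 3.12 to 4.04). They also lie above for Lce1 (3.27 to 4.86 against 2.53 to 2.64, on few reads). For the late structural genes they lie below (12.9 to 22.6 against 55.2 to 71.7).

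No member passed the test between control and eKO skin at an adjusted p of 0.05, although most fitted changes were positive. Of the 50 members, 46 had reads in skin and 33 had at least 10 normalised reads in 5 or more libraries and were tested, namely 7 Sprr genes, 23 late barrier genes, Ivl, Tgm1 and Tgm3. The limma test called 0 of the 33, where it called 0.374% of all 16589 genes tested; 15 members, all with positive changes, had an unadjusted p under 0.05, which 14.2% of all genes reached. edgeR called 0 members (0.326% of genes) and DESeq2 called 5, all higher in eKO (3.95% of genes): Casp14, Lce1e, Lce1f, Lce1k and Sprr4, of which all but Casp14 are named after their values were seen. DESeq2 gave no adjusted p for 2 of the 33. The groups overlapped for all 33, where 4.18% of all genes had groups that did not. The fitted change was positive for 30 of the 33 and negative for Lce1m, Flg2 and Lce1l. The median log2 fold change was 2.30 for the 7 Sprr genes, 0.72 for the 23 late barrier genes and 5.91e-05 for all genes tested. Markers of other skin compartments moved with the groups as well. The 6 upper follicle markers summed to 10199 to 16043 normalised reads in controls and 25314 to 46931 in eKO, without overlap, and 2 of the 4 tested, Krt79 and Cst6, rose, while Klk10 and Plet1 were at 0 throughout. The 8 sebaceous markers summed to 12310 to 59719 and 39214 to 63214, and Cidea and Far2 rose. Their part in the members' values was not tested.

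The Sprr genes showed 2 patterns across the skin libraries. Sprr1a, a precursor abundant in stressed keratinocytes, had 2072, 4239, 4855, 9936 and 1796 normalised reads in the controls and 8891, 3990.3, 15242, 7208 and 7214 in eKO. The highest library was eKO replicate 3, and control replicate 4 exceeded 4 of the 5 eKO libraries. The means were 4579.7 ± 3276 (SD, n = 5) and 8509 ± 4161 (SD, n = 5), and the fitted log2 change was 1.04 (SE 0.47, adjusted p = 0.354). Sprr4, another small proline-rich gene, had 811, 862, 1369, 792 and 564 in controls and 3973, 1364, 5939, 1508 and 2866 in eKO. Its groups met almost edge to edge, the lowest eKO library (1364) lying just under the highest control (1369), and the log2 fold change was 1.67 (SE 0.40, adjusted p = 0.105). Sprr4 was higher in eKO replicates 1, 3 and 5 than in eKO replicates 2 and 4, as the upper follicle sum was. Neither gene was highest in eKO replicate 4.

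Sprr1b, Sprr2d and Sprr2g had low values in most skin libraries and their highest in eKO replicate 4. Sprr1b had 1.89, 594, 40.7, 86.8 and 0.95 normalised reads in controls and 85.5, 59.9, 188, 2308 and 247 in eKO. Sprr2d had 7.57, 56.5, 9.40, 0 and 0 in controls and 15.1, 20.6, 80.9, 1390.2 and 158 in eKO, and Sprr2g had 0.946, 26.1, 8.35, 0 and 0 and 10.7, 5.89, 39.2, 271 and 39.5. Control replicate 2 was the highest control for all 3 genes. Their log2 fold changes were 3.10 (SE 1.55, adjusted p = 0.403) for Sprr1b, 4.05 (SE 1.39, adjusted p = 0.222) for Sprr2d and 3.23 (SE 1.16, adjusted p = 0.238) for Sprr2g. Without eKO replicate 4 they were 2.26, 3.06 and 2.46 (adjusted p = 0.602, 0.374 and 0.402, limma). Sprr2a3 did not follow this pattern and was highest in eKO replicate 5. This gene, which shares 36.2% of its 100-base exon windows with other transcripts and is therefore uncertain in reads that map to several copies, had 53, 4.22, 30.3, 0.934 and 2.85 in controls and 12.5, 28.5, 36, 59.9 and 83.4 in eKO, with a log2 fold change of 2.03 (SE 0.90, adjusted p = 0.343).

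**Figure D2:**
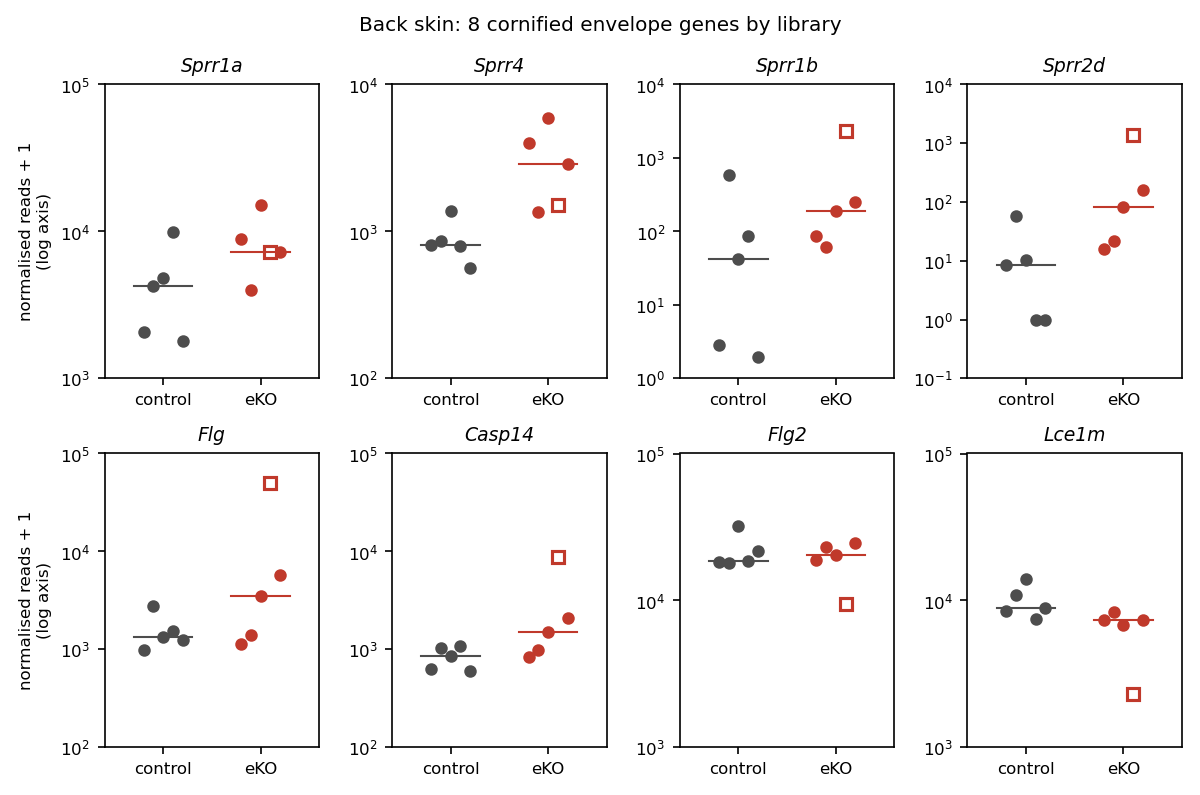
Normalised reads plus 1 (log axis) of 8 envelope genes in the 5 control (grey) and 5 eKO (red) back skin libraries; lines are medians and the open square is eKO replicate 4. The square is the highest point for Sprr1b, Sprr2d, Flg and Casp14 and the lowest for Flg2 and Lce1m, and it lies inside the eKO range for Sprr1a and Sprr4.

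The late barrier genes of skin were marked by the same library. Flg had 988, 2777, 1332, 1548 and 1248 normalised reads in controls and 1143, 1419, 3548, 49965 and 5704 in eKO, so eKO replicate 4 stood 16.9-fold above the mean of the other eKO libraries. The log2 fold change of Flg was 1.57 (SE 0.87, adjusted p = 0.453), and 0.69 (adjusted p = 0.607) without that library. Casp14, the protease of filaggrin breakdown, had 625, 1023, 863, 1089 and 606 in controls and 829, 996, 1518, 8769.7 and 2069 in eKO, a log2 fold change of 1.19 (SE 0.54, adjusted p = 0.354) with it and 0.63 (adjusted p = 0.417) without it. Flg2 went the other way in that library: it had 18147, 18119, 32234, 18639 and 21748 in controls and 18985, 23121, 20299, 9486 and 24557 in eKO. Per 1000 bases of exon, the ratio of Flg to Flg2 was 5.82 in eKO replicate 4 and 0.0457 to 0.257 in the other 9 skin libraries.

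Within the Lce1 family the same split occurred. Lce1m, the most abundant Lce gene, had 8485, 10921, 14051, 7461 and 8826 normalised reads in controls and 7357, 8361, 6853, 2326 and 7394 in eKO, where eKO replicate 4 was the lowest library (log2 fold change -0.71, SE 0.33, adjusted p = 0.368). The other 13 Lce1 genes had log2 fold changes from -0.05 (Lce1l) to 1.81, and for 12 of the 14 Lce1 genes eKO replicate 4 was the highest library. The 6 Lce3 genes had 59.0 to 721 normalised reads in eKO replicate 4 and at most 40.9 in any other library, and 1 of them, Lce3c, passed the filter. Lor had 38634, 48494, 56175, 33759 and 40642 in controls and 47419, 67042, 53797, 83141 and 72989 in eKO (log2 fold change 0.57, SE 0.24, adjusted p = 0.317). Kprp, Cdsn and Crct1, a keratinocyte proline-rich protein, corneodesmosin and a cysteine-rich terminal protein, had log2 fold changes of 0.18, 0.27 and 0.43 with adjusted p from 0.325 to 0.709.

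Involucrin and the cross-linking enzymes did not pass the test in skin. Tgm1 had 44.5, 64.9, 107, 137 and 71.3 normalised reads in controls and 66.8, 81.5, 127, 86.1 and 77.5 in eKO, and Ivl had 1452, 2073, 2406, 2413 and 1840.1 and 1769.6, 3309, 2897, 5399 and 3078. Tgm3, the transglutaminase of epidermis and hair, had 56.8, 32, 122, 647 and 44.7 and 35.6, 56.9, 116, 402 and 146, highest in control replicate 4. That library also had the highest sum of the 7 inner root sheath markers, 143638 normalised reads against 16.1 to 59500.4 in the other 9; its part in the Tgm3 value was not tested. The log2 fold changes were 0.63 (SE 0.26, adjusted p = 0.301) for Ivl, 0.12 (SE 0.30, adjusted p = 0.887) for Tgm1 and 0.22 (SE 0.84, adjusted p = 0.932) for Tgm3, and those of Tgm1 and Tgm3 changed sign when single libraries were left out.

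Library eKO replicate 4 was the highest of the 10 for 24 of the 33 tested members (72.7%), and for 10.8% of all genes tested. It exceeded the mean of the other 4 eKO libraries over 2-fold for 18 of the 33 tested members (54.5%) and for 2.86% of all genes, while each of the other eKO libraries did so for 0 to 2 members. The 7 suprabasal markers split in this library: Krt1 (145869 normalised reads against 13046 to 41167 in the other 9), Krt10 and Calml3 were at their highest, Krt77 (21335 against 55876 to 129570) and Krt2 at their lowest, and Dsg1a and Krtdap inside the range of the others. The alarm protein genes S100a8 and S100a9 had 414 and 975 there, against at most 114 and 381 in the other libraries. The 4 stress keratins Krt6a, Krt6b, Krt16 and Krt17 summed to 7956, 21919, 10168, 10648 and 9476 in controls and 32923, 15139.7, 35924, 31494 and 28715 in eKO, a sum made up mostly of Krt17 and Krt6a. For the other two, eKO replicate 4 was the highest eKO library: Krt16 was 9281 there against 912 to 2612 in the other eKO libraries, and Krt6b 2824 against 42.2 to 406, while control replicate 2 had 4436 and 2895. What sets this library apart was not tested. Without it, limma again called 0 members, and 0.137% of all genes.

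**Figure D3:**
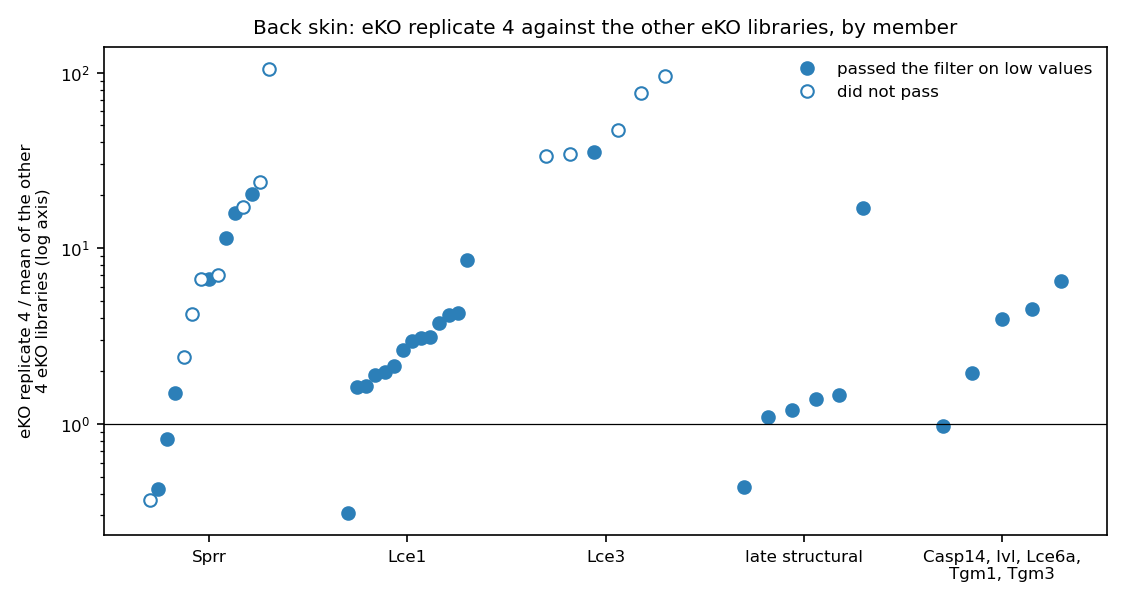
Ratio of back skin eKO replicate 4 to the mean of the other 4 eKO libraries (log axis) for the 46 members with reads, by family; filled points passed the filter on low values and open points did not. Of the 46, 30 lie over 2 and 13 over 10, among them the 6 Lce3 genes, while 6 lie under 1, among them Lce1m and Flg2.

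In the sorted bulge cells 9 of the 11 members tested changed, in both directions, or 6 of 8 without the 3 members that reached 10 normalised reads in 1 group alone. Casp14, Tgm3, Ivl, Sprr1a and Sprr2a3 rose, and Flg2, Kprp, Lce1m and Cdsn fell. The count of 9 of 11 stands beside 19.4% of all 13784 genes tested that limma called, 10.7% higher and 8.74% lower. The groups did not overlap for 10 of the 11, and for 36.3% of all genes. Only 35 of the 50 members had a read in these cells and 11 passed the filter of 10 normalised reads in 3 or more libraries: 2 Sprr genes, 7 late barrier genes, Ivl and Tgm3. Sprr2a3 passed through its eKO libraries alone and Kprp and Lce1m through their controls alone, so for these 3 a difference was built into the filter. Flg2 and Lor, which are among the 8, reached 10 in 3 controls but only 1 eKO library. The filter thus favoured a fall for them too.

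Casp14 had 82.8, 89.4 and 101 normalised reads in the controls and 833, 946 and 944 in eKO. The groups were far apart and each was tight, 91.1 ± 9.21 (SD, n = 3) and 908 ± 64.5 (SD, n = 3), and the log2 fold change was 3.31 (SE 0.17, adjusted p = 5.58e-08). Tgm3 rose from 18, 15.8 and 7.0 to 149, 130.4 and 122, a log2 fold change of 3.30 (SE 0.42, adjusted p = 1.63e-04). Tgm3 is also made by the inner root sheath of the follicle, and the 7 sheath markers summed to 204 to 234 in controls and 1357 to 1563 in eKO, with Tchh listed at 0 throughout; their part in the Tgm3 change was not tested. Ivl had 45.9, 76.8 and 79 in controls and 159, 198 and 152 in eKO, a log2 fold change of 1.36 (SE 0.28, adjusted p = 0.00516). Tgm1 had 6 reads in the controls and 11 in eKO and was not tested.

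Sprr1a had 22.9, 26.3 and 19 normalised reads in controls and 331, 199.5 and 230.1 in eKO. Every eKO library was above every control, and the log2 fold change was 3.40 (SE 0.31, adjusted p = 1.03e-05). Sprr2a3 had 2 reads over the 3 controls and 75 over the 3 eKO libraries, a ratio of 34.9 after correction for depth (95% exact counting interval 9.34 to 294, counting error only); its log2 fold change was 4.04 (SE 0.95, adjusted p = 0.0104). Another 4 Sprr genes had no read in any control and reads in all 3 eKO libraries. Sprr1b had 35 reads in eKO, at least 10.9-fold higher when the controls are set to a floor of 3 reads over the group. Sprr2h had 28 (at least 8.70-fold higher), Sprr2d 21 (at least 6.52-fold) and Sprr2g 10 (at least 3.11-fold). These 4 were below the filter; with no filter limma called Sprr1b, Sprr2d and Sprr2h higher as well. The 17 Sprr genes together had 3.42, 4.04 and 3.12 RPM in controls and 55.2, 35.5 and 42.8 in eKO, and Sprr1a supplied most of them.

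The late barrier genes that fell did so from low levels. Flg2 had 118, 183 and 123 normalised reads in controls and 16.7, 0 and 5.33 in eKO, with every eKO library below every control and a log2 fold change of -4.85 (SE 0.82, adjusted p = 0.00125). It was -5.79 without eKO replicate 1 and -3.72 without eKO replicate 2, called in both cases. Kprp had 61.8, 37.9 and 53 in controls and 0, 0 and 3.20 in eKO; the 151 control reads and 3 eKO reads gave a ratio of 54 (interval 18.1 to 265) and the log2 fold change was -4.98 (SE 0.84, adjusted p = 0.00119), or -5.67 without eKO replicate 3. Lce1m went from 45 reads to 2 (ratio 24.1, interval 6.31 to 206, log2 fold change -3.47, SE 1.03, adjusted p = 0.0320). Cdsn had 155, 232 and 143 and 72, 127 and 57.5, a smaller change of -1.09 (SE 0.32, adjusted p = 0.0305).

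The calls for Lce1m and Cdsn were the least stable of the 9. Lce1m lost its call when any 1 of the controls was left out (adjusted p = 0.122 to 0.166) and with the replicate number as a block (adjusted p = 0.0536), and Cdsn lost it in 5 of 6 omissions, where the adjusted p reached 0.159. Lor had 18.9, 21 and 51 normalised reads in controls and 8.34, 17.5 and 1.07 in eKO; the groups did not overlap, but the log2 fold change of -2.0 (SE 0.83, adjusted p = 0.113) missed the threshold, and passed it at -2.69 (adjusted p = 0.0448) without eKO replicate 2. Crct1 had 13, 6.31 and 11 and 6.07, 4.38 and 17, overlapping groups with a change of -0.28 and a 95% interval of -1.98 to 1.42.

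**Figure D4:**
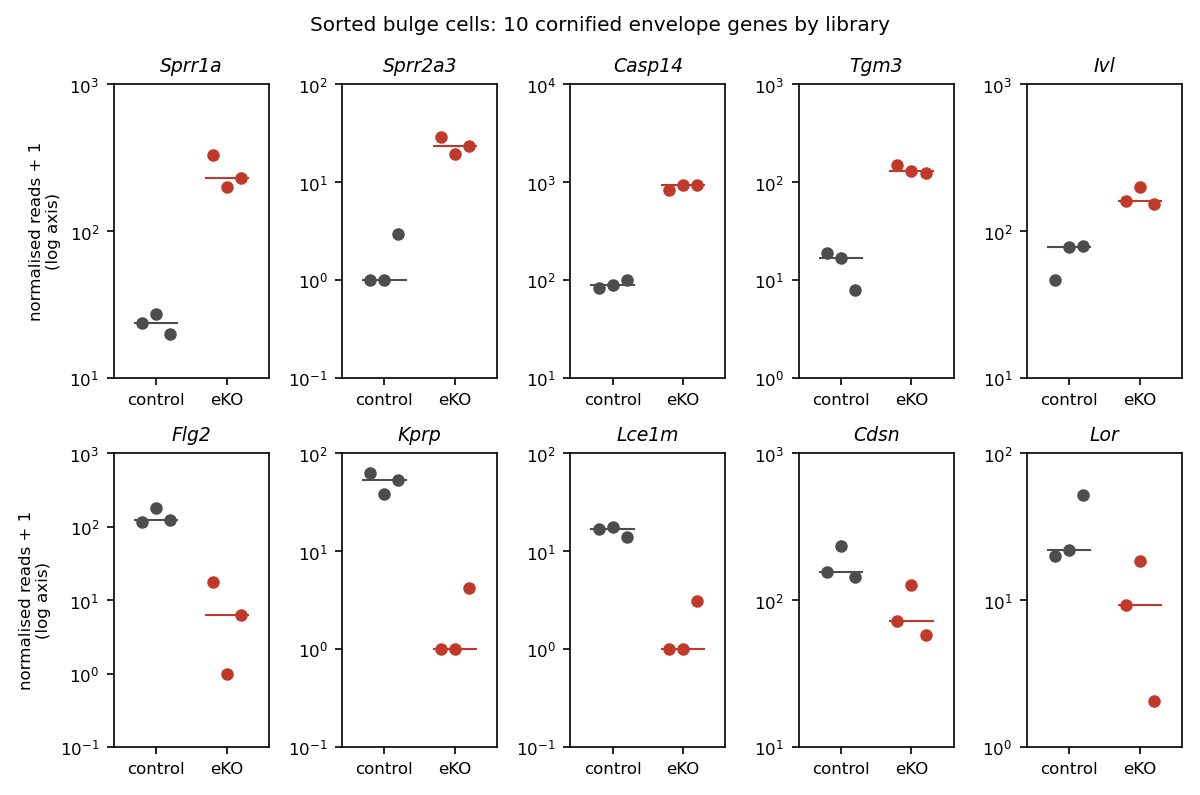
Normalised reads plus 1 (log axis) of 10 envelope genes in the 3 control (grey) and 3 eKO (red) libraries of sorted bulge cells; lines are medians. The upper row, Sprr1a, Sprr2a3, Casp14, Tgm3 and Ivl, has all eKO points above the controls; the lower row, Flg2, Kprp, Lce1m, Cdsn and Lor, has all eKO points below them.

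Not all late barrier genes followed Flg2. Flg, the near neighbour of Flg2 in the gene complex, had 3.99, 4.21 and 2.0 normalised reads in controls and 6.82, 9.87 and 6.39 in eKO, 10 reads against 24, and was not tested. Lce1a1 had 0 reads in controls and 41 in eKO (at least 12.7-fold higher), all of them in eKO replicates 1 and 3, and Lce1c had 0 and 10 (at least 3.11-fold). Lce1a1, Lce1c, Lce3c, Sprr2h and Crct1 are members that the rule for naming single genes did not select, and they were picked after their values were seen. The median log2 fold change of the late barrier genes shows how much rests on the filter: it was -2.0 over the 7 tested and 0.44 over the 21 with any read, against -0.03 for all genes tested. The 8 late structural genes summed to 55.2, 71.7 and 56.9 RPM in controls and 15.4, 22.6 and 12.9 in eKO, whereas the 30 late barrier genes, which include Casp14, summed to 70.1, 87.6 and 74.4 and 138, 160.1 and 152.

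The amounts in sorted cells were small beside those in skin. In RPM and across libraries prepared and normalised separately, control bulge cells had 0.121% of the control skin level of Lor, 0.266% of Lce1m, 0.843% of Sprr1a, 1.12% of Flg2 and 1.98% of Kprp. Of the 9 members called in bulge cells, Casp14 went from 18.6% in controls to 177% of the control skin level in eKO, and Sprr2a3 from 6.48% to 213%, on 2 and 75 reads. For Sprr2a3 the control skin level was itself low and uneven, 1.53 ± 1.91 RPM (SD, n = 5). Tgm3 had 2.02 RPM in control bulge cells and 19.0 in eKO, against 16.2 ± 24.4 (SD, n = 5) in control skin, where 693 of its 955 reads came from control replicate 4.

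The genotype effect was then compared between the tissues by its own contrast, the change in bulge cells minus the change in skin. It was called for 6 of the 11 members tested in both, where 5.62% of all 13227 genes were called (3.44% more positive in bulge cells and 2.18% more negative). Kprp and Lce1m reached the filter in bulge cells in their controls alone, which builds a negative change into their values there. Without these and Sprr2a3 the count was 4 of 8. Those 4 include Flg2 and Lor, which reached 10 normalised reads in 3 bulge controls but only 1 bulge eKO library. The filter thus favoured a fall for them too. The effect was more negative in bulge cells for 5 late barrier genes: Kprp by -5.16 (SE 0.51, adjusted p = 1.59e-05), Flg2 by -4.64 (SE 0.84, adjusted p = 0.00345), Lce1m by -2.75 (SE 0.56, adjusted p = 0.00836), Lor by -2.57 (SE 0.69, adjusted p = 0.0380) and Cdsn by -1.35 (SE 0.33, adjusted p = 0.0233). It was more positive for Sprr1a, by 2.36 (SE 0.65, adjusted p = 0.0423). The contrast pools 1 variance per gene over both tissues. Its SE therefore lay below the SE of the bulge effect alone for Kprp (0.84), Lce1m (1.03) and Lor (0.83). For these genes the adjusted p of the difference may be too small. The differences for Kprp and Flg2 were called under each alternative tried, though Flg2 ranged from -5.58 without bulge eKO replicate 1 to -3.51 without bulge eKO replicate 2. That of Lce1m was lost with edgeR (-3.76, adjusted p = 0.0543) and with a pseudocount of 5 (-1.13, adjusted p = 0.164). That of Cdsn was lost in 3 of 16 omissions of a library, those of bulge control replicate 2 and bulge eKO replicates 1 and 3 (adjusted p = 0.0734, 0.0572 and 0.0614). Those of Lor and Sprr1a lay close to the threshold and were lost in 9 and 11 of the 16 omissions, with adjusted p up to 0.102 and 0.0966; without bulge eKO replicates 2 and 3 in turn, Lor was -3.26 and -1.68.

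Casp14 and Tgm3 had large but uncertain differences, 2.11 (SE 0.73, adjusted p = 0.0997) with a 95% interval of 0.58 to 3.65 for Casp14 and 3.08 (SE 1.15, adjusted p = 0.131) with an interval of 0.64 to 5.53 for Tgm3. The Casp14 difference passed at 2.67 (adjusted p = 4.75e-04) without skin eKO replicate 4. For Sprr2a3, Ivl and Crct1 the differences were 2.01 (SE 1.30, adjusted p = 0.400), 0.73 (SE 0.39, adjusted p = 0.293) and -0.71 (SE 0.45, adjusted p = 0.390).

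**Figure D5:**
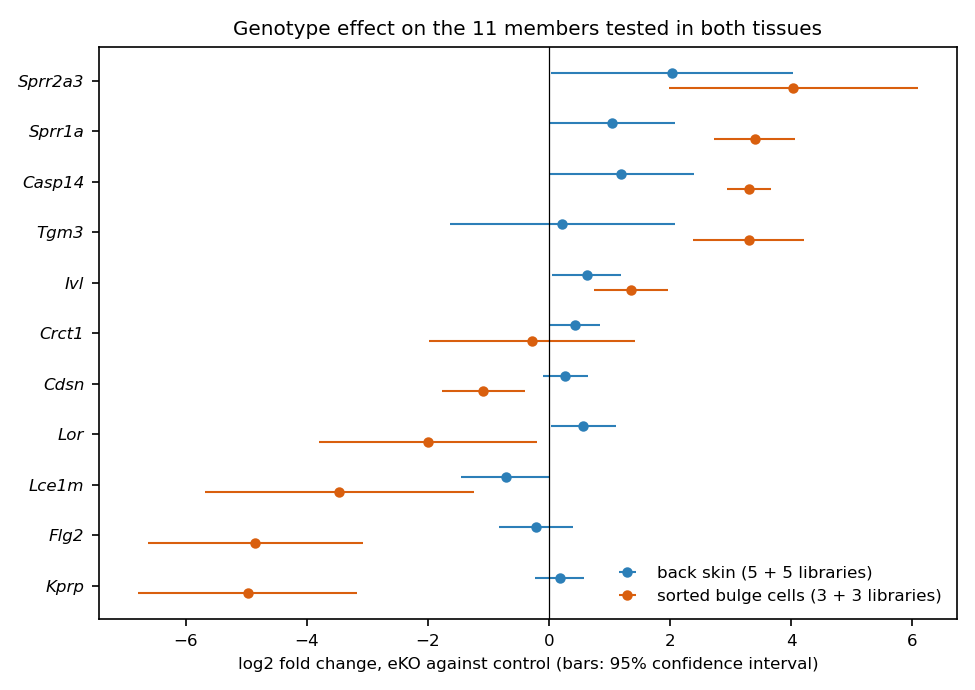
Log2 fold change of eKO against control with its 95% confidence interval in back skin (blue) and sorted bulge cells (orange) for the 11 members tested in both. In bulge cells Sprr2a3, Sprr1a, Casp14, Tgm3 and Ivl lie right of 0 and Cdsn, Lor, Lce1m, Flg2 and Kprp left of it; in skin most estimates lie between -1 and 1.

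Set against each other within a library, the Sprr share was higher in every eKO library of bulge cells than in any control, and the groups overlapped in skin. In skin there were 3.36, 5.24, 4.50, 12.3 and 2.46 Sprr reads per 100 late barrier reads in the controls and 12.2, 4.20, 18.3, 6.59 and 7.29 in eKO, and control replicate 4 was higher than 4 of the 5 eKO libraries. In bulge cells the ratios were 4.88, 4.62 and 4.19 in controls and 40, 22.2 and 28.1 in eKO. Casp14 supplied a mean of 13.5 of the 77.4 late barrier RPM in bulge controls and 128.6 of 150.1 in eKO. The late barrier reads of eKO bulge cells were thus mostly Casp14. Because members were chosen with results of these data known, no test was made of these ratios.

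Genes that work alongside the envelope proteins were called higher more often than lower in eKO bulge cells, by lists drawn up beside the members. Over all genes tested there, 10.7% were called higher and 8.74% lower. Of 9 other genes of the epidermal differentiation complex tested, 5 rose (Tchhl1, Crnn, Pglyrp4, S100a14 and S100a16) and 0 fell, and the list median was 1.00 on the log2 scale against -0.03 for all genes. Crnn was at 0 in every bulge control and passed the filter through its eKO libraries alone, so a rise was built into its call. In skin, Tchhl1 and Crnn were highest in control replicate 4 (9182 and 6432 normalised reads), which also had the highest inner root sheath sum. The part of the sheath in their rise was not tested. Of 12 envelope plaque and desmosome genes, 7 rose, among them the desmosomal cadherin gene Dsc1 (log2 fold change 2.21, SE 0.65, adjusted p = 0.0304) and the plakophilin gene Pkp1 (log2 fold change 0.90, SE 0.08, adjusted p = 1.28e-05), and the transglutaminase gene Tgm5 fell (log2 fold change -1.0, SE 0.09, adjusted p = 6.18e-06); the median was 0.46. Of 9 genes for filaggrin processing and corneocyte shedding, 5 rose and 0 fell, with a median of 0.84. They include the shedding protease gene Klk7 at 101, 119.9 and 58 normalised reads in controls and 606, 630.3 and 568 in eKO (log2 fold change 2.74, SE 0.24, adjusted p = 8.96e-06), and the gene for the filaggrin protease Asprv1 (log2 fold change 0.84, SE 0.24, adjusted p = 0.0274).

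The lipid genes and regulators are read against the same shares of all genes, 10.7% higher and 8.74% lower. Of 10 corneocyte lipid genes 6 rose, among them the ceramide synthase gene Cers3 (log2 fold change 1.27, SE 0.14, adjusted p = 4.36e-05), and the lipoxygenase gene Aloxe3 fell (log2 fold change -1.09, SE 0.33, adjusted p = 0.0327); the median was 1.07. Of 15 transcription factors known to regulate envelope genes 8 rose, namely Grhl1, Grhl3, Ovol1, Prdm1, Cebpa, Cebpb, Ahr and Junb, and 0 fell, with a median of 0.57. Junb, an AP-1 subunit, had 3644, 3430.3 and 3674 normalised reads in controls and 5884, 5717 and 4989 in eKO (log2 fold change 0.62, SE 0.09, adjusted p = 2.76e-04). The 4 stress keratins all rose, with Krt16 at 6.98, 17.9 and 21 in controls and 234, 193 and 191 in eKO (log2 fold change 3.79, SE 0.41, adjusted p = 4.36e-05). Summed markers of suprabasal epidermis, sebaceous gland, upper follicle, inner root sheath, hair shaft, leukocytes and endothelium were higher in the same eKO libraries. In the suprabasal, upper follicle and leukocyte lists, 1 marker each was called lower. The part of these cell types in the changes was not tested.

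In skin the same 5 lists gave 2 called genes of 61 tested, where 0.374% of all genes were called, the cystatin gene Cstb, whose protein is an envelope component, at 1.42 (SE 0.18, adjusted p = 0.0110) and the long-chain fatty acid elongase gene Elovl4 at 1.19 (SE 0.19, adjusted p = 0.0383). The list medians in skin were 0.40 for other complex genes, 0.05 for plaque and desmosome, 0.30 for filaggrin processing, 0.25 for corneocyte lipid and 0.12 for the regulators.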

How the data were processed

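Bulk RNA of 16 mouse libraries was analysed from 2 gene tables. Submitters' processing notes name GRCm39 for all libraries and featureCounts and DESeq2 for skin, without versions; for sorted cells the counter is not given in the sources used here, nor is strandedness. The deposited values are a signal, read counts that the authors divided by 1 size factor per library; division by each library's smallest step gave whole reads for 100% of values within 0.01. Symbols came from a gene name table (94.1% of skin rows and 91.4% of sorted cell rows matched).

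Genes that reached 10 in 5 or more skin libraries, or in 3 or more libraries of sorted cells, were tested with limma 3.58.1 in R 4.3.3, with a trended prior, on log2(value + 1), which understates changes of low genes; p-values were adjusted by Benjamini-Hochberg over all genes tested, at 0.05. Each tissue was fitted alone, because the tables were normalised separately. The tissue difference was a contrast in 1 fit of the 4 groups, with 1 variance per gene over both tissues. The script was tested on simulated data. Alternatives were pseudocounts of 0.5 and 5, no filter, edgeR 4.0.16 and DESeq2 1.42.0 on the recovered reads, scaling by library size only, omission of each library, a replicate block in sorted cells, and in skin a hair shaft covariate and omission of the 2 libraries low in Y-linked genes. Intervals and floors (3 reads over a group) cover counting error only.

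The members and lists were chosen with earlier results of these data known. In the list of transcription factors 1 gene is not reported here and was left out of its counts and medians. Named members are those past the threshold in any comparison, the 3 tested members with the largest and the 3 with the smallest log2 fold change in each tissue, and Lor, Flg, Flg2, Hrnr, Ivl, Casp14, Tgm1, Tgm3, Cdsn, Sprr1a and Sprr1b. Reads shared between copies are uncertain: 92.5% of the 100-base exon windows of Sprr2a1 and 92.8% of those of Sprr2a2 occur in other transcripts, as do 24.1% to 43.0% in Lce3c, Lce3d, Lce3e and Lce3f.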

Additional observations from a re-analysis of the deposited data

Results flagged for a closer look

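In back skin, single libraries stood far from the rest of their group, by the gap to the nearest library as a share of the group's range, for 10 of the 36 sets of values looked at; chance gives about 1 in 20 for independent, unselected sets. Of these, 6 were eKO replicate 4, with 8769.7 normalised reads of Casp14, 49965 of Flg, 2308 of Sprr1b, 1390.2 of Sprr2d and 271 of Sprr2g, all high, and 2326 of Lce1m, low. Another 2 were control replicate 2, with 594 of Sprr1b and 56.5 of Sprr2d. The others were control replicate 3 with 32234 of Flg2 and control replicate 4 with 647 of Tgm3. The 36 sets share libraries, and some members were named for large changes, so the chance rate is no test of this count.

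The genotype effect differed between bulge cells and skin, by the contrast of the 2 effects, for Kprp (-5.16), Flg2 (-4.64), Lce1m (-2.75), Lor (-2.57), Cdsn (-1.35) and Sprr1a (2.36), all on the log2 scale as bulge cells minus skin. Kprp and Lce1m reached the filter in bulge cells in their controls alone. Flg2 and Lor reached 10 normalised reads in 3 bulge controls and 1 bulge eKO library.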

How the results depend on the processing

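In skin 0 members were called under each alternative except DESeq2, with 5, all higher. In bulge cells, omission of single libraries gave 7 to 11 called, 5 to 6 higher and 2 to 5 lower; each omitted control left 2 lower. Without the filter 8 were higher. In the tissue difference, omissions gave 3 to 7 called, 0 to 2 higher and 3 to 5 lower, with 3 without bulge control replicate 2; edgeR, library size scaling and a pseudocount of 5 each gave 0 higher. The Sprr median in bulge cells was 2.03 without the filter and 4.10 and 2.75 with pseudocounts of 0.5 and 5. With a pseudocount of 5 the changes there were -3.22 for Kprp, -1.84 for Lce1m and -3.79 for Flg2. The late barrier median there was 0.44 without the filter, which adds members with few reads, and -2.20 to -1.11 over omissions. Signs of changes near 0 in skin turned: Flg2 between -0.315 and 0.0279 over omissions (the latter without eKO replicate 4), Lce1l between -0.194 and 0.0971 and Tgm1 between -0.0813 and 0.320 over omissions too, and Tgm1 to -0.0549 without the 2 libraries low in Y-linked genes. Tgm3 in skin was -0.27 with DESeq2, -0.28 with edgeR, -0.0690 without those 2 libraries and -0.26 to 0.92 over omissions. The cause of these shifts was not tested.

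Same-numbered bulge libraries did not deviate together (correlations -0.06, -0.02 and -0.03), so the numbers are not taken as pairs. With the replicate number as a block, Lce1m had an adjusted p of 0.0536 (limma) and no other named member lost or gained a call. Of the 15 members with no read in bulge cells, 11 had reads in skin, and a change of these in bulge cells was not detectable at this depth; the other 4 were at 0 in both tissues.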
